A study of Mus musculus with 6 samples.

Results

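Heat shock proteins and their partner chaperones were examined in liver endothelial cells (ECs) of young and aged mice. The 34 genes were chosen by name from textbook chaperone families, and all 34 were found among the 24421 gene symbols of the count table and the 24346 symbols of the FPKM table. By textbook class, 18 of them are known to be induced by heat and other protein stress, 14 are regarded as constitutive, and 2 (Hsf1 and Hsf2) encode heat shock factors. The RNA came from CD31+CD45- liver ECs of wild-type C57BL/6J female mice, 3 of them 10 weeks old (young) and 3 of them 127, 131 and 136 weeks old (aged), with 1 library from 50000 sorted cells per sample. The labels number the samples and are read here as 1 mouse each. No mouse in these 2 groups carried a transgene or received a treatment according to the labels. The livers were digested with enzymes under shaking before the sort, so all 6 samples share that handling, and each group holds the mixed ECs of the liver and not a single EC type.

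Chaperones bind unfolded proteins and help them to reach or regain their shape. Hsp70 proteins do so in cycles of ATP hydrolysis that J proteins (DNAJ) start and nucleotide exchange factors end, Hsp90 proteins finish the folding of kinases and hormone receptors, and small heat shock proteins hold unfolded proteins without using ATP. Unfolded protein releases heat shock factor 1 from chaperones, and the factor then binds heat shock elements, repeats of the bases GAA in alternating orientation, in front of the inducible genes. Constitutive members of the same families are made in unstressed cells.

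Promoter sequences are shown because heat shock factors act through this element. Hspa1a, Hspa1b and Hspb1 are examples of abundant inducible genes that differed widely among the aged samples, and Hspa4 is a constitutive contrast. They are those of RefSeq on build GRCm38.p6 (300-base windows, 250 bases before and 50 after the start), another build than the mm9 of the read mapping. Of the 34 genes, 26 had a window, and Hspa8, Hspa9, Hspa13, Hsp90aa1, Hsp90ab1, Hsf1, Cryab and St13 had none. Capitals mark matches to GAANNTTC or TTCNNGAA, which are heat shock elements of 2 units that read the same on both strands and may overlap each other. The 250 bases before the start are printed for Hspa1a (chr17:34972157-34972406, minus strand), Hspa1b (chr17:34959239-34959488, minus strand), Hspb1 (chr5:135887669-135887918, plus strand) and Hspa4 (chr11:53300480-53300729, minus strand), the last a constitutive gene with no match.
Hspa1a: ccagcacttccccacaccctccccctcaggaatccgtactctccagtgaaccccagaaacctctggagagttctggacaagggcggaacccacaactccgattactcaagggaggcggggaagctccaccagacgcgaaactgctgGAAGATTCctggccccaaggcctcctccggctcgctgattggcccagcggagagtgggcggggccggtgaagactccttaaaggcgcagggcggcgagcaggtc
Hspa1b: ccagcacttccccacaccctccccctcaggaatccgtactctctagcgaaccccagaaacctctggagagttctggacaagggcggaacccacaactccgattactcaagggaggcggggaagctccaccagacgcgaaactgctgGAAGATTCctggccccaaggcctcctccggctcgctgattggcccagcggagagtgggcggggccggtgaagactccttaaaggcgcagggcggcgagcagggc
Hspb1: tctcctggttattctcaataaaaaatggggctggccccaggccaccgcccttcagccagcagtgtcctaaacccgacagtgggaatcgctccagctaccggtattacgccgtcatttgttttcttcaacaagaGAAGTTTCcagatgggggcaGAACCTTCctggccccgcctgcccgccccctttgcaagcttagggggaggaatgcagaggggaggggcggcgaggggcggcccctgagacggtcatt
Hspa4: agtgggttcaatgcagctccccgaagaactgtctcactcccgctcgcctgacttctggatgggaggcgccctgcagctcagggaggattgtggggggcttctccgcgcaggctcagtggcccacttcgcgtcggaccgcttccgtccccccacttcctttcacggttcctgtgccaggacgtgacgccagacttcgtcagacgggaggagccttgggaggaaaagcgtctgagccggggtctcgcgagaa

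The windows of Hspa1a and Hspa1b were identical at 247 of 250 bases (98.8%), and their single match stood at the same place. Only the matched site is shown for 5 further genes, the first 3 of them with 3 units and the last 2 from the stress genes Bag3 and Hspb8, namely Hspe1 (chr1:55088053-55088082, plus strand), whose site lies between the divergent starts of Hspe1 and Hspd1, Dnajb6 (chr5:29735844-29735872, plus strand), the constitutive gene with the longest match, Chordc1 (chr9:18292263-18292292, plus strand), Bag3 (chr7:128523616-128523632, plus strand) and Hspb8 (chr5:116422846-116422871, minus strand). The last 3 sites lie at or just after the start.
Hspe1: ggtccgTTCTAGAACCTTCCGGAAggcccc
Dnajb6: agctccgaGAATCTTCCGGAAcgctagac
Chordc1: GAACGTTCGGGAAAATTCCTGAAgcagtac
Bag3: atgggaccaGAAGTTTC
Hspb8: aagccaggaGAAGTTTCtaggctcgc

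A match to 2 units was present for 12 of the 16 heat-inducible genes with a window (75%) and for 2 of the 9 constitutive genes (22.2%), Dnajb6 and Hspb6. A gene with several windows was counted when any of them matched, here and for all genes. Dnaja1, Dnajb4, Hspd1 and Hspb6 had windows with and windows without a match. The 12 are not 12 separate sequences, since Hspd1 and Hspe1 share the site between their starts and Hspa1a and Hspa1b have near-identical windows. Among all 27025 genes with a window, 16.97% had such a match. Matches to 3 units, a match as above with a further GAA or TTC in alternation after 2 more bases, were present for Hspd1, Hspe1, Hsph1 and Chordc1 among the heat-inducible genes (25%), for Dnajb6 among the constitutive genes and for 0.662% of all genes. Ahsa1, Dnajb1, Hspa4l and Stip1 were the heat-inducible genes with a window and no match of either kind. A match describes the letters and is not a measured binding site.

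Samples held 23001556 to 31651817 counts, and the 34 genes took between 1.02% and 1.28% of them. The smallest count of any of these genes was 71 (Hspb6 in young sample 1), so counting error was small beside the differences between mice for all but the lowest genes. Library composition differed within each age group. The symbols Lars2 and Rn45s, which collect ribosomal RNA reads, took 1.29% of the counts in young sample 3 and 0.960% in the 127-week sample. They took 4.68% to 5.53% in the remaining 4, which came from both ages. Age differences are therefore also given within these 2 library clusters, as the 131- and 136-week samples against young samples 1 and 2 and as the 127-week sample against young sample 3. In RNA of sorted cells in bulk, fewer cells of a type and less RNA per cell cannot be told apart. Levels of single genes are given as CPM, in which TMM factors make the libraries comparable in size, and levels of different genes are compared only as FPKM, which are also divided by gene length.

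None of the 34 genes passed the threshold of the age comparison (edgeR quasi-likelihood test, a Benjamini-Hochberg adjusted p under 0.05 with more than 1 log2 unit of change), and none of all 14612 tested genes did (0.0%). The smallest adjusted p of a chaperone gene was 0.332. At an unadjusted p below 0.05, 3 of the 34 genes were higher in aged ECs (Dnajb4, Hspb8 and Hspa9) and 0 were lower, against 8.32% and 4.32% of all tested genes, 1847 genes in the 2 directions together. So 3 of 34 is near the share of all genes. With DESeq2, 2.7% of all genes passed the same threshold as higher and 0.541% as lower (3.31% and 1.06% at any fold change), while 0 of the 34 chaperone genes passed at any fold change, 4 were higher at an unadjusted p below 0.05, near the 9.68% of all genes that were, and the smallest adjusted p was 0.114 (Dnajb4). All aged samples lay above all young samples for 1 of the 34 genes, Hspa9, against 9.62% of all genes, and below them for 2, Hspbp1 and Dnaja1, against 8.33% of all genes. The map of the 34 genes by sample shows the wide differences among the aged mice.

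**Figure D1:**
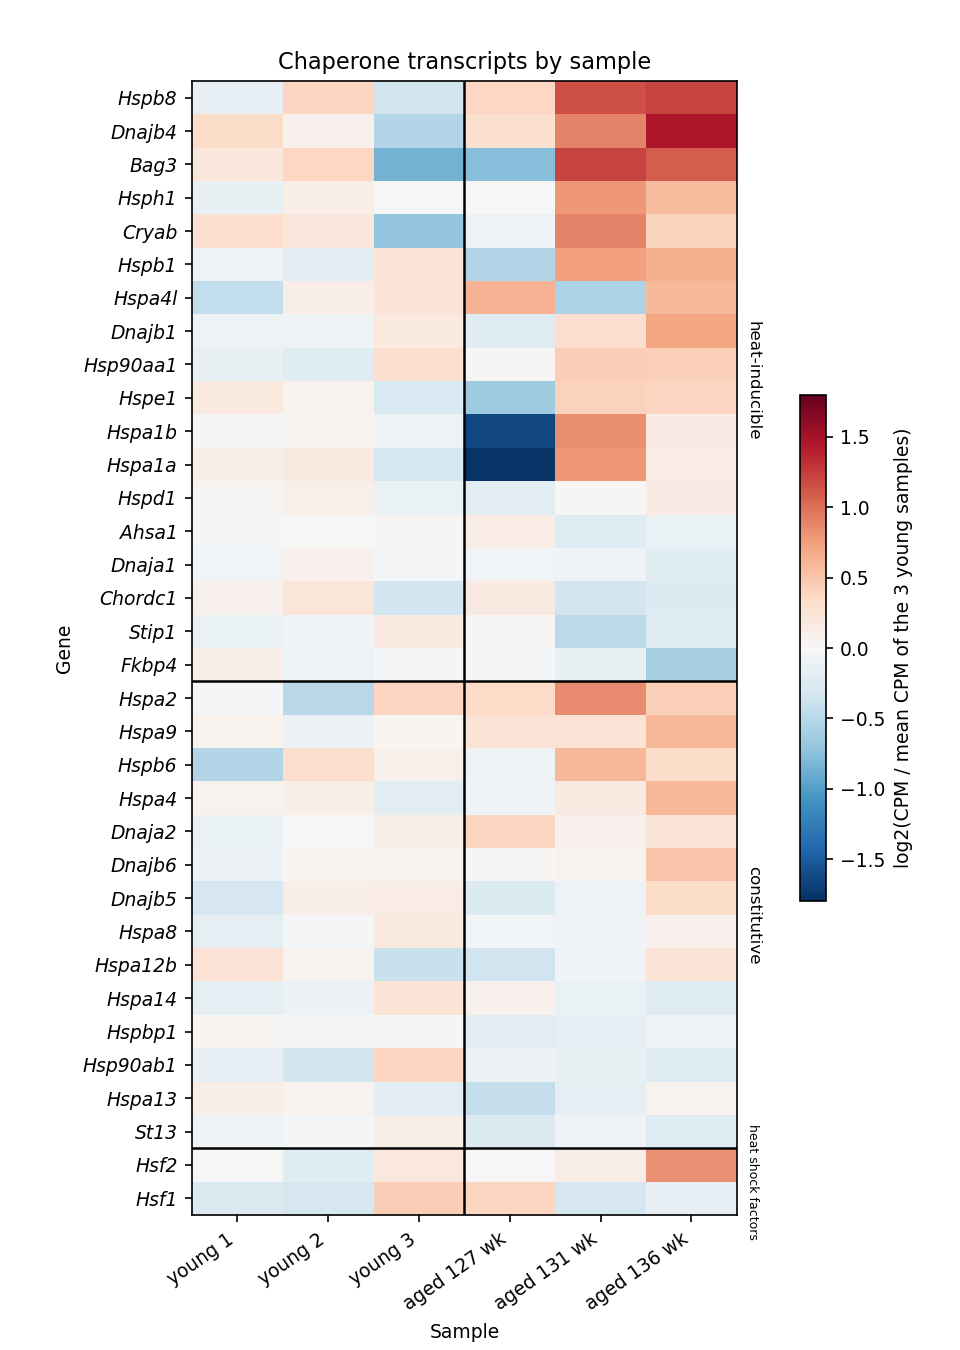
Level of each of the 34 genes (rows, by class) in each of the 6 samples (columns), as log2 of the CPM over the mean CPM of the 3 young samples (colour scale, red higher, blue lower). In the heat-inducible block the 131- and 136-week columns are red for most genes at the top, while Hspa1a and Hspa1b are dark blue in the 127-week column.

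Hspa1a and Hspa1b encode the heat-inducible cytosolic Hsp70, on chromosome 17 of mm9 at positions 35106144 to 35109069 and 35093381 to 35096183. Hspa1a stood at 1166, 1196 and 860 CPM in young samples 1, 2 and 3, and at 316, 1844 and 1178 CPM in the 127-, 131- and 136-week samples. Its lowest and highest values of all 6 were thus both in aged mice, and the groups overlapped fully. Hspa1b stood at 1085, 1105 and 1008 CPM in young samples and at 344, 1912 and 1182 CPM in the 127-, 131- and 136-week samples. The log2 fold changes were 0.05 (SE 0.55, adjusted p = 0.984) for Hspa1a and 0.10 (SE 0.52, adjusted p = 0.963) for Hspa1b, and their sign changed with the processing (limma-voom gave -0.26 and -0.20). The genes are near-identical copies: 62.2% of the 75-base stretches of Hspa1a transcripts also occur in another gene, mainly Hspa1b, and 54.5% of those of Hspa1b do so, so the split of reads between them is uncertain. Their summed CPM does not depend on the split if each shared read was counted once, which is not known here. The sum was 2251, 2301 and 1868 CPM in young samples and 659, 3756 and 2360 CPM in the 127-, 131- and 136-week samples. This gave a young mean of 2140 ± 237 and an aged mean of 2258 ± 1551 (SD over 3 mice). The 131-week value was 5.70 times the 127-week value, while the young values spanned far less.

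Hspa8, the constitutive cytosolic Hsp70 known as Hsc70, was the most abundant of the 34 transcripts and nearly level. It stood at 3274, 3592 and 4159 CPM in young samples and at 3545, 3512 and 3865 CPM in the 127-, 131- and 136-week samples (log2 fold change -0.01, SE 0.19, edgeR adjusted p = 0.986). All aged values lay inside the young range, and the highest Hspa8 sample was 1.27 times the lowest, against 5.84 times for Hspa1a. Hspa2, a family member best known from male germ cells, stood at 47.1, 34.1 and 63.1 CPM in young samples and at 61.4, 87.1 and 65.1 CPM in the 127-, 131- and 136-week samples (log2 fold change 0.56, SE 0.25, edgeR adjusted p = 0.412). Its 127-week sample was below young sample 3. Hspa9, the Hsp70 of the mitochondrial matrix, stood at 155, 139 and 152 CPM in young samples and at 176, 176 and 225 CPM in the 127-, 131- and 136-week samples, so that the groups did not overlap (log2 fold change 0.37, SE 0.15, edgeR adjusted p = 0.383). Hspa13, an Hsp70 of the microsomal compartment, stood at 50.6, 49.2 and 41.0 CPM in young samples and at 34.7, 41.9 and 49.0 CPM in the 127-, 131- and 136-week samples (log2 fold change -0.16, SE 0.17, edgeR adjusted p = 0.756). Hspa14 and Hspa12b, an Hsp70-like gene known for its expression in ECs, had log2 fold changes of -0.09 and -0.04.

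Hsph1, Hspa4 and Hspa4l encode the Hsp110 proteins, which act as nucleotide exchange factors of Hsp70. The heat-inducible Hsph1 stood at 124, 147 and 135 CPM in young samples and at 135, 231 and 201 CPM in the 127-, 131- and 136-week samples (log2 fold change 0.49, SE 0.21, edgeR adjusted p = 0.404). The 127-week sample lay inside the young range and the other 2 aged samples above it. Hspa4, its constitutive relative, stood at 96.5, 99.2 and 80.4 CPM in young samples and at 88.3, 103 and 139 CPM in the 127-, 131- and 136-week samples (log2 fold change 0.26, SE 0.20, edgeR adjusted p = 0.649). Here the 136-week sample alone was well above the young range. Hspa4l stood at 13.9, 20.5 and 21.99 CPM in young samples and at 29.0, 12.6 and 28.5 CPM in the 127-, 131- and 136-week samples (log2 fold change 0.32, SE 0.35, edgeR adjusted p = 0.770). It was lowest in the 131-week sample, where Hspa1a was highest.

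Among the Hsp90 genes, the inducible Hsp90aa1 stood at 257, 241 and 344 CPM in young samples and at 285, 381 and 379 CPM in the 127-, 131- and 136-week samples (log2 fold change 0.31, SE 0.20, edgeR adjusted p = 0.582). The constitutive Hsp90ab1 stood at 1580, 1394 and 2285 CPM in young samples and at 1624, 1602 and 1498 CPM in the 127-, 131- and 136-week samples (log2 fold change -0.15, SE 0.23, edgeR adjusted p = 0.842). Its spread lay among the young mice, with young sample 3 highest. Of the factors that work with Hsp90, Fkbp4, an immunophilin of steroid receptor complexes, stood at 112, 97.8 and 102 CPM in young samples and at 102, 94.6 and 68.4 CPM in the 127-, 131- and 136-week samples (log2 fold change -0.23, SE 0.18, edgeR adjusted p = 0.651). Stip1, which links Hsp70 to Hsp90, stood at 129, 135 and 158 CPM in young samples and at 143, 100.4 and 119 CPM in the 127-, 131- and 136-week samples (log2 fold change -0.22, SE 0.17, edgeR adjusted p = 0.669). St13, a further Hsp70 partner, stood at 87.4, 89.8 and 99.3 CPM in young samples and at 77.9, 88.4 and 78.4 CPM in the 127-, 131- and 136-week samples, of which 1 reached the young range (log2 fold change -0.18, SE 0.13, edgeR adjusted p = 0.640). Ahsa1, which speeds up the ATPase of Hsp90, and Chordc1 had log2 fold changes of -0.07 and -0.13. These 5 partner genes all had lower means in aged ECs, none past the test.

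J proteins deliver substrates to Hsp70. Dnajb4 stood at 63.6, 53.4 and 35.1 CPM in young samples and at 61.8, 94.3 and 139 CPM in the 127-, 131- and 136-week samples, and had the smallest p of the 34 genes together with Hspb8 (log2 fold change 0.96, SE 0.33, unadjusted p = 0.0225, edgeR adjusted p = 0.332). Its 127-week value was just below young sample 1, and the other 2 aged values were above all young ones. Dnajb1, the main heat-inducible J protein, stood at 364, 365 and 440 CPM in young samples and at 333, 484 and 636 CPM in the 127-, 131- and 136-week samples (log2 fold change 0.32, SE 0.25, edgeR adjusted p = 0.661). Dnaja1 stood at 652, 711 and 656 CPM in young samples and at 648, 641 and 576 CPM in the 127-, 131- and 136-week samples, which did not overlap but differed little (log2 fold change -0.11, SE 0.15, edgeR adjusted p = 0.815). Of its 75-base stretches, 9.04% were shared with another gene, mainly Smu1. Dnaja2 stood at 131, 142 and 152 CPM in young samples and at 185, 150 and 166 CPM in the 127-, 131- and 136-week samples (log2 fold change 0.24, SE 0.14, edgeR adjusted p = 0.550). Dnajb6, which holds back protein aggregation, stood at 105, 116 and 119 CPM in young samples and at 115, 118 and 162 CPM in the 127-, 131- and 136-week samples (log2 fold change 0.21, SE 0.17, edgeR adjusted p = 0.674). Only its 136-week value was above the young range. Dnajb5 stood at 26.6, 35.4 and 36.0 CPM in young samples and at 27.4, 30.7 and 41.0 CPM in the 127-, 131- and 136-week samples (log2 fold change 0.02, SE 0.21, edgeR adjusted p = 0.986).

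Hspb1 (Hsp27), the most abundant small heat shock protein here, stood at 306, 288 and 387 CPM in young samples and at 225, 546 and 507 CPM in the 127-, 131- and 136-week samples (log2 fold change 0.38, SE 0.33, edgeR adjusted p = 0.702). As with Hspa1a, the lowest and the highest value were both in aged mice. Of its 75-base stretches, 32.4% also occur in another gene, mainly Gm9817, so its level is uncertain to that extent. Hspb8, which acts with Bag3 in the clearance of misfolded proteins, stood at 3.65, 5.24 and 3.19 CPM in young samples and at 5.19, 9.02 and 9.34 CPM in the 127-, 131- and 136-week samples (log2 fold change 0.97, SE 0.34, unadjusted p = 0.0226, edgeR adjusted p = 0.332). Bag3 itself, a stress-inducible Hsp70 exchange factor, stood at 192, 215 and 92.4 CPM in young samples and at 97.5, 386 and 355 CPM in the 127-, 131- and 136-week samples (log2 fold change 0.75, SE 0.52, edgeR adjusted p = 0.616). Its low values were those of the 2 libraries with few Lars2 and Rn45s counts, 1 in each group. Cryab (alpha B-crystallin) stood at 14.0, 13.04 and 6.94 CPM in young samples and at 10.7, 21.1 and 14.9 CPM in the 127-, 131- and 136-week samples (log2 fold change 0.46, SE 0.35, edgeR adjusted p = 0.649). Hspb6, a constitutive small heat shock protein known from muscle, stood at 2.64, 4.74 and 4.07 CPM in young samples and at 3.58, 5.796 and 4.79 CPM in the 127-, 131- and 136-week samples (log2 fold change 0.31, SE 0.34, edgeR adjusted p = 0.777).

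**Figure D2:**
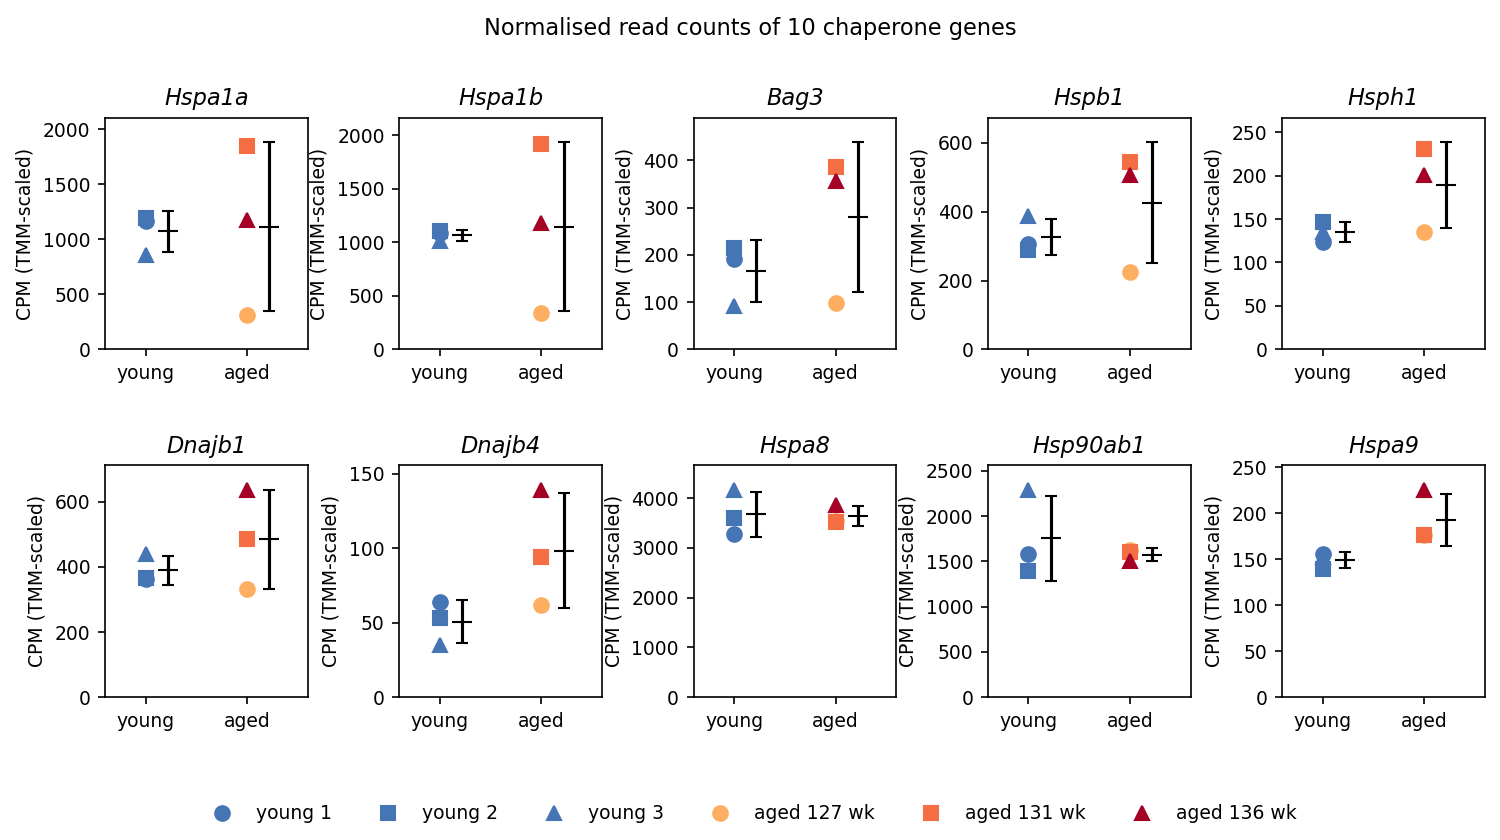
CPM after TMM scaling (y axis, from 0) of 10 chaperone genes in the 3 young (blue) and 3 aged (orange to red) samples, with the mean and SD of each group as black bars. For Hspa1a the aged points lie at 316, 1178 and 1844 CPM around 3 young points between 860 and 1196 CPM, while for Hspa8 the aged points lie inside the young range.

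Of the mitochondrial chaperonin pair, Hspd1 (Hsp60) was at 110 ± 8.29 CPM in young and 110 ± 12.8 CPM in aged ECs, and its partner Hspe1 (Hsp10) stood at 30.9, 28.7 and 22.6 CPM in young samples and at 17.7, 36.6 and 35.9 CPM in the 127-, 131- and 136-week samples (log2 fold change 0.13, SE 0.29, edgeR adjusted p = 0.909). Hspbp1, which releases nucleotide from Hsp70, stood at 35.5, 34.1 and 34.2 CPM in young samples and at 30.4, 30.8 and 32.8 CPM in the 127-, 131- and 136-week samples, a small difference without overlap (log2 fold change -0.14, SE 0.13, edgeR adjusted p = 0.720). Hsf1, the factor that drives the response, stood at 31.7, 30.7 and 51.6 CPM in young samples and at 49.6, 30.8 and 34.3 CPM in the 127-, 131- and 136-week samples (log2 fold change 0.01, SE 0.27, edgeR adjusted p = 0.994). Its high values were those of young sample 3 and the 127-week sample. Hsf2 stood at 3.80, 3.25 and 4.29 CPM in young samples and at 3.78, 4.12 and 6.66 CPM in the 127-, 131- and 136-week samples (log2 fold change 0.36, SE 0.33, edgeR adjusted p = 0.720).

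Compared by class, 13 of the 18 heat-inducible genes (72.2%) were higher on average at old age, against 51.1% of all tested genes. The class had a median log2 fold change of 0.22 and a range of -0.23 to 0.97. Of the 14 constitutive genes, 7 were higher (50%), with a median of 0.00 and a range of -0.18 to 0.56. The median over all tested genes was 0.01. The median of the heat-inducible genes changed with single samples, at 0.47 without the 127-week, 0.087 without the 131-week and 0.078 without the 136-week sample. Of the 34 genes, 7 were higher at an unadjusted p below 0.05 without the 127-week sample, against 7.81% of all genes, and 0 without the 136-week sample, against 5.10% of all genes. The 6 genes taken here as markers of the response (Hspa1a, Hspa1b, Hsph1, Dnajb1, Hspb1 and Bag3) all had higher aged means. Their median log2 fold change was 0.35. This list was chosen with earlier results of these data known, and Hspa1a and Hspa1b in it are near-identical copies. For this pair the log2 fold changes were 0.05 and 0.10, and they turned negative with limma-voom. These medians describe the lists and were given no test.

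**Figure D3:**
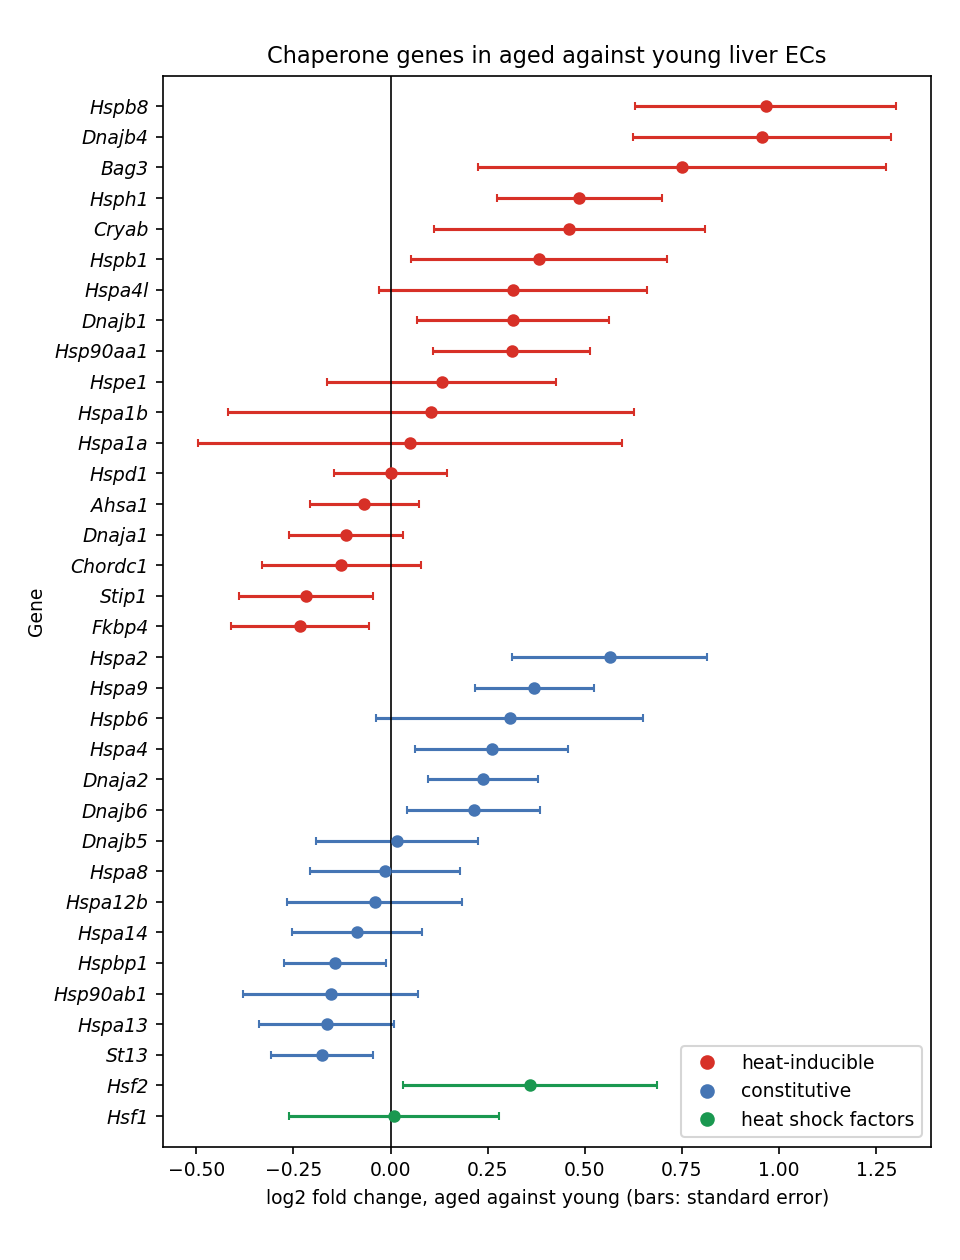
Log2 fold change of aged against young ECs (x axis) for each of the 34 genes (y axis), from edgeR, with bars of 1 standard error, coloured by class. Most heat-inducible genes (red) lie above 0 and the constitutive genes (blue) on both sides of it, with Hspb8 at 0.97 and Fkbp4 at -0.23 as the extremes.

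The spread among mice was also described by class. From the lowest to the highest of the 6 samples, the median ratio was 1.99 for heat-inducible genes, 1.54 for constitutive genes, 3.30 for the 6 response markers and 1.95 for all tested genes. Among the 3 aged samples alone the median ratios were 1.85, 1.34 and 3.19, against 1.56 for all genes, and among the 3 young samples 1.36, 1.25 and 1.28, against 1.45 for all genes. The ratio was larger among aged than among young samples for 15 of 18 heat-inducible genes (83.3%) and 7 of 14 constitutive genes (50%), and for 58.8% of all genes. With 3 mice in each group, these ratios are descriptions.

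The aged samples were also compared across genes. As medians of log2 deviation from the young mean, the 6 response markers stood at -0.65 in the 127-week, 0.78 in the 131-week and 0.60 in the 136-week sample, while the young samples lay from -0.04 to 0.09. All 18 heat-inducible genes stood at -0.04, 0.43 and 0.39 in the same 3 aged samples, and the 14 constitutive genes at -0.08, -0.06 and 0.24. The 127-week sample was the lowest of the 6 for 4 of the 6 response markers and for 6 of 18 heat-inducible genes (33.3%), against 15.2% of all genes. The 131-week sample was the highest for 5 of the 6 response markers, 8 of 18 heat-inducible genes (44.4%) and 2 of 14 constitutive genes, against 12.7% of all genes. The order was the other way for some heat-inducible genes: the 131-week sample was the lowest for 3 of 18 (16.7%, against 12.7% of all genes) and the 127-week sample the highest for 2 of 18. The 131-week value was 0.436 times the 127-week value for Hspa4l, 0.700 times for Stip1, 0.711 times for Chordc1 and 0.775 times for Ahsa1. These genes are known to respond to a common factor, so their counts are not independent of each other.

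Within the library clusters, the medians of the response markers had opposite signs, and all 6 markers were higher in the aged samples of the first cluster but only 2 of 6 in the second. The 131- and 136-week samples exceeded young samples 1 and 2 by a median log2 difference of 0.64 for the 6 markers, 0.36 for the heat-inducible and 0.16 for the constitutive genes. The 127-week sample differed from young sample 3 by -0.59, -0.01 and -0.17. For Hspa1a the differences were 0.32 and -1.45, for Hspa1b 0.46 and -1.55, for Hspb1 0.83 and -0.78, and for Dnajb1 0.61 and -0.40. Bag3 (0.87 and 0.08) and Hsph1 (0.68 and 0.0042) did not change sign, but their second difference was close to 0. Dnajb4 (0.97 and 0.82), Hspb8 (1.07 and 0.70) and Hspa9 (0.44 and 0.21) were higher in the aged samples of both clusters. These genes had an unadjusted edgeR p below 0.05 in the same 6 samples, so this is not separate support for them. Cryab (0.40 and 0.62), Dnaja2 (0.21 and 0.28), Hspa4 (0.29 and 0.14) and Hspa4l (0.17 and 0.40) were also higher in both. The share of all genes higher in both clusters was not counted. The second cluster has 1 mouse of each age, so its differences have no replicate check.

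**Figure D4:**
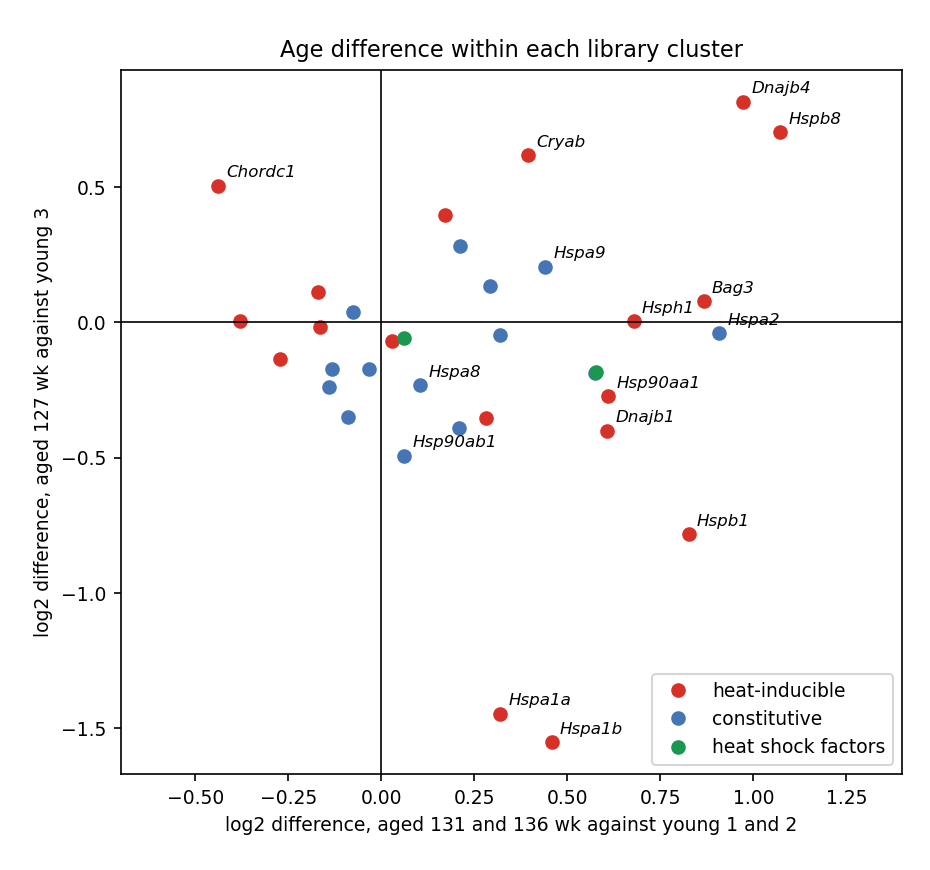
Age difference (log2 of CPM) of each of the 34 genes within the 4 libraries with many Lars2 and Rn45s counts (x axis) and within the 2 libraries with few (y axis), coloured by class. Dnajb4 and Hspb8 lie at the upper right, while Hspa1a and Hspa1b lie far below 0 on the y axis and above 0 on the x axis.

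On the FPKM scale, which allows levels of different genes to be compared, the order of the young means began with Hspa8 (1882 ± 254), Hsp90ab1 (736 ± 206), Hspb1 (456 ± 81.2), Hspa1a (401 ± 64.8), Hspa1b (397 ± 14.1), Dnajb1 (133 ± 15.8), Dnaja1 (123 ± 5.81) and Hsp90aa1 (101 ± 20.5). Hspb1, Hspa1a and Hspa1b did not differ beyond their spread, since their young ranges overlapped, and neither did Dnajb1 and Dnaja1 or Dnaja1 and Hsp90aa1. The lowest were Hspb6 (3.16 ± 0.995), Hspb8 (2.42 ± 0.611) and Hsf2 (1.46 ± 0.173). Inducible transcripts were present at high levels in the freshly sorted young ECs too, where the sum of Hspa1a and Hspa1b was at 0.502, 0.468 and 0.328 of the FPKM of Hspa8. That level is uncertain, since the handling of reads shared by the 2 genes is not known. In the 127-, 131- and 136-week samples the ratio of this sum to Hspa8 was 0.136, 0.781 and 0.446.

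Ratios of an inducible to a constitutive family member within a sample were formed for 10 pairs. The groups did not overlap for 2 of them, and 12.3% of all 561 pairs of the 34 genes did not overlap either. The log2 FPKM ratio of Hsp90aa1 to Hsp90ab1 was -2.84, -2.75 and -2.96 in young samples and -2.73, -2.28 and -2.19 in the 127-, 131- and 136-week samples. All aged values were higher, though the 127-week sample was close to the young ones. The log2 ratio of Dnaja1 to Dnaja2 was 1.33, 1.33 and 1.10 in young samples and 0.81, 1.10 and 0.80 in the 127-, 131- and 136-week samples, with all aged values lower but the 131-week value nearly level with young sample 3. Hspa1a to Hspa8, Hspa1b to Hspa8, Hsph1 to Hspa4, Hspa4l to Hspa4, Dnajb1 to Dnajb6, Dnajb4 to Dnajb5, Hspb1 to Hspb6 and Cryab to Hspb6 overlapped between the ages.

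**Figure D5:**
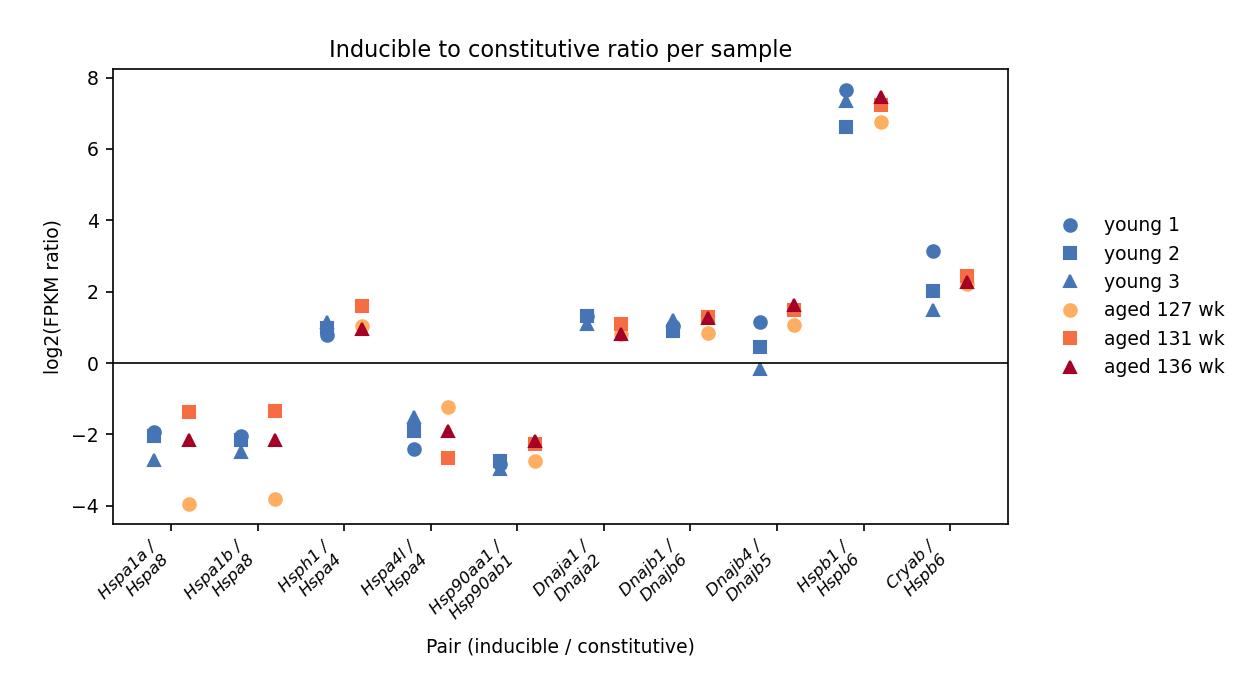
Log2 ratio of the FPKM of an inducible to a constitutive family member (y axis) for 10 pairs (x axis) in each young (blue) and aged (orange to red) sample. The 3 aged points of Hsp90aa1 over Hsp90ab1 lie above the young points, and those of Hspa1a over Hspa8 run from -3.94 to -1.38, on both sides of the young points.

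The rest of the chaperone network was described by lists. The 8 subunits of the chaperonin TRiC, which folds actin and tubulin, had a median log2 fold change of 0.03, the 6 prefoldin subunits -0.03, 12 other J proteins 0.08, 12 other Hsp90 partners -0.08, 8 other Hsp70 exchange factors -0.10, and 10 chaperones of the endoplasmic reticulum and mitochondria -0.17. None of the genes in these 6 lists had an unadjusted p below 0.05 in edgeR in either direction. Of all tested genes, 8.32% were higher and 4.32% lower at that p. The widest single difference was that of Fkbp5, an Hsp90 partner that glucocorticoids induce, at 63.1, 121 and 277 CPM in young samples and 77.2, 80.6 and 78.6 CPM in the 127-, 131- and 136-week samples (log2 fold change -0.96, SE 0.47, edgeR adjusted p = 0.458). Its spread lay among the young mice.

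The 12 endothelial markers were all detected and their TMM-scaled CPM summed to between 18917 and 21012 in young and between 11183 and 14805 in aged samples. Of the 12, 8 had lower and 4 had higher aged means. Stab2, Clec4g, Kdr and Stab1 were lower at an unadjusted p below 0.05 in edgeR (4 of 12, against 4.32% of all tested genes). Mean CPM of these 4 was 3041, 3938, 3507 and 2748 in young samples. In aged samples it was 935, 1429, 2237 and 1660. Pecam1 was level, at means of 1444 and 1459 CPM, so the sums do not describe every marker. The 8 pan-leukocyte markers summed to 109 to 114 CPM in young samples and to 117, 109 and 359 CPM in the 127-, 131- and 136-week samples. Lcp1 alone stood at 79.3 to 86.9 CPM in young samples and at 59.6, 83.7 and 156 CPM in these aged samples. The median log2 deviation of the 8 markers from the young mean was 1.11, -0.24 and 3.31 in the same aged samples. In young samples that median lay between -0.34 and 0.18. Of the 8, 5 were higher at an unadjusted p below 0.05 in edgeR, against 8.32% of all tested genes. The 5 T and NK cell markers were at or below 0.447 CPM in sum in young samples, where Cd3d was at 0 in 2 of 3, and at 4.81, 0.311 and 19.7 CPM in the 127-, 131- and 136-week samples. All 5 were higher at an unadjusted p below 0.05 in edgeR, but each reached the 0.5 CPM filter in aged samples only. Macrophage markers summed to 33.2 to 62.4 CPM in young samples and to 98.2, 12.6 and 159.7 CPM in the 127-, 131- and 136-week samples. Stellate and mural cell markers summed to 178 to 523 CPM in young samples and to 478, 278 and 787 CPM in the 127-, 131- and 136-week samples. Reln alone stood at 155, 181 and 69.9 CPM in young samples and at 351, 109 and 496 CPM in these aged samples. Of the 11 stellate and mural markers, 7 had higher and 4 had lower aged means. Lrat, Col3a1 and Col1a1 were among the lower ones (log2 fold changes -2.19, -1.34 and -1.26). Hepatocyte markers summed to 247 to 326.5 CPM in young and 194 to 317 CPM in aged samples. Much of that sum was Trf, at 116 to 172 CPM in young and 105 to 243 CPM in aged samples. The other 9 of the 10 hepatocyte markers had lower aged means, and 4 were lower at an unadjusted p below 0.05 in edgeR. The median log2 fold change of the 10 was -0.79. Cholangiocyte markers summed to 88.1 to 105 CPM in young and 189 to 237 CPM in aged samples. All 5 had higher aged means, and 2 of 5 (Sox9 and Spp1) were higher at an unadjusted p below 0.05 in edgeR. Most of the sum was Spp1, at 80.7, 77.4 and 96.2 CPM in young samples and at 170, 161 and 206 CPM in the 127-, 131- and 136-week samples. Krt19 overlapped between the ages and was highest in young sample 1. B cell markers summed to 0.947 to 1.23 and 0.739 to 8.49 CPM, and erythroid markers to 4.42 to 10.3 and 2.76 to 12.4 CPM. The part of other cells in the differences between samples was not tested.

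Immediate early genes, which also respond to handling of tissue, were measured beside the heat-inducible genes. Of 12, 11 had higher aged means, against 51.1% of all tested genes. An unadjusted p below 0.05 as higher in edgeR was reached by 7 of them, against 8.32% of all tested genes. The median log2 fold change of the 12 was 0.58. Their median log2 deviation from the young mean was 0.24, 0.38 and 1.01 in the 127-, 131- and 136-week samples. Atf3 was at 457, 449 and 981 CPM in young samples and at 1378, 1089 and 2279 CPM in the 127-, 131- and 136-week samples (log2 fold change 1.33, SE 0.40, edgeR adjusted p = 0.288). Of the 12 genes, 10 were highest in the 136-week sample, all but Fos and Dusp1, against 25.7% of all tested genes. In the 127-week sample 11 were above the young mean, all but Dusp1. The median of the heat shock response markers was lowest in the 127-week sample. The part of tissue handling in either group of genes was not tested.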

How the data were processed

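Sorted liver ECs of 3 young and 3 aged mice were compared. The authors called bases with CASAVA (1.8.2), aligned the single-end reads of 75 bases against mm9 by TopHat2 (2.1.0) and deposited raw read counts per gene symbol. A second table deposited by the authors holds FPKM from Cuffnorm (2.2.1). The counting program, its annotation and its use of strand are not given in the sources used here, so overlapping genes are uncertain. Total counts were 23001556 to 31651817 per sample. A floor of 3 counts equals at most 0.130 CPM and covers counting error only.

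Genes that reached 0.5 CPM in 1 sample or more (14612) were scaled by TMM and compared with the quasi-likelihood test of edgeR (4.0.16, R 4.3.3), with Benjamini-Hochberg adjustment over all tested genes. The 14612 genes include all 34 chaperone genes. Standard errors (SE) were derived from the same fit, as the absolute log2 fold change over the square root of its F statistic. Alternatives were DESeq2 (1.42.0), limma (3.58.1) with voom or on log2(FPKM + 0.1 or 1), other scalings and filters, a term for the library cluster (Lars2 and Rn45s above or below 2% of counts) and the removal of each mouse. Replicates were labelled as separate samples, and their counts differed beyond sampling noise. The chi-square per degree of freedom was 21.3 for young sample 1 against young sample 2. It was 156 to 198 for the other pairs within a group, so young samples 1 and 2 were the most alike.

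The 34 genes, the classes and the lists were chosen with earlier results of these data known. Values in every sample were given for the genes of the 10 inducible and constitutive pairs, for Hsf1 and Hsf2 and for the 5 genes with the smallest edgeR p in each direction, and the others by means or by log2 fold change. Bag3, Hspe1, Atf3 and Fkbp5 fall outside that rule and were named after their values were seen. The same holds for the single cell type markers given by name, such as Reln, Lcp1, Trf and Spp1. Shared 75-base stretches were counted in the GENCODE protein-coding transcripts of mm9. Promoter windows were those of RefSeq (GRCm38.p6). Colony assays, transplantations and single cells of the study were not used here.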

Additional observations from a re-analysis of the deposited data

How the results depend on the processing

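No chaperone gene passed the adjusted threshold under any of the 17 alternatives, and 435 of the 459 values of the 27 individually compared genes kept their sign. The other 24 belonged to 6 genes. Hspa1a had a log2 fold change of -0.23 with the library cluster term, -0.26 with limma-voom, -0.28 on log2(FPKM + 0.1) and -0.28 on log2(FPKM + 1), and Hspa1b had -0.16, -0.20, -0.22 and -0.22. Hspa8 had 0.047 with library size alone and 0.0014 with a CPM of at least 1 in 3 samples. In the 4 libraries with many Lars2 and Rn45s counts, a fit added after the data were seen, Hspa8 had 0.10 and Hsp90ab1 0.058. With 1 mouse left out in turn, the range was -0.17 to 0.14 for Dnajb5, -0.22 to 0.29 for Hsf1, -0.29 to 0.083 for Hsp90ab1, -0.52 to 0.50 for Hspa1a, -0.48 to 0.54 for Hspa1b and -0.089 to 0.085 for Hspa8. The lowest values of Hspa1a and Hspa1b were those without the 131-week sample and the highest those without the 127-week sample.

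Chaperone genes higher at an unadjusted p below 0.05 numbered 3 by default (8.32% of all genes were), 5 with library size alone (9.79%), 6 with the library cluster term (10.2%) and 8 in the 4 libraries (6.38%), where 1 was lower (3.12%). With 1 mouse left out they numbered 0 to 7, with 0 without the 136-week (5.10%), 7 without the 127-week (7.81%) and 1 without young sample 1 (6.32%). The median of the heat-inducible genes ranged from 0.078 (without the 136-week sample) to 0.47 (without the 127-week sample) with 1 mouse left out, and the constitutive median was 0.15 in the 4 libraries. The share of heat-inducible promoters with a heat shock element was 25% for 3 units in place of 75% for 2. Among all genes, none passed as higher or lower by default. No filter gave 3 higher and 1 lower, DESeq2 395 and 79, log2(FPKM + 0.1) 1 and 1, and the library cluster term 1 and 1. With 1 mouse left out, 0 to 1 were higher. The causes of these shifts were not tested. No paired analysis was possible because the aged samples are labelled by age and share no replicate numbers with the young ones.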
